A study of Mus musculus with 18 samples.

Results

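The leukocyte integrins followed here are 8 genes, Itgb2, Itgal, Itgam, Itgax, Itgad, Itga4, Itgb7 and Itgae, chosen by name from the 36232 genes that the comparison tables identify by 1 symbol. All 8 had exactly 1 transcript cluster (the set of probes that reads 1 gene), and 7 of them had a signal for each array. Itgad was given only as the authors' group averages and standard deviations. Infrarenal abdominal aortas of 18 male mice were profiled, each on its own Mouse Transcriptome Array 1.0, and values are log2 signals. Normal aorta (n = 5) came from untreated mice without a sham operation. PPE (n = 6) came from mice in which porcine pancreatic elastase had been instilled into the aorta to raise an abdominal aortic aneurysm. PPE + Lenva systemic (n = 7) came from PPE mice that received lenvatinib, an oral inhibitor of the VEGF, FGF and related receptor kinases, by daily gavage at 5 mg/kg in DMSO from day 7 to day 24.

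The sample labels describe the mice as ApoE-/-, aged 10 weeks at induction. For the elastase model the study's methods give wild-type C57BL/6J mice instead, so the strain was not settled here. Tissue was taken on day 28, 4 days after the last dose. Vehicle gavage of the PPE mice was not stated for these arrays, so lenvatinib cannot be told apart from vehicle, gavage and anaesthesia. Elastase likewise cannot be told apart from the operation. Samples were pieces of whole wall with RNA integrity numbers between 5.7 and 9.8, not given per array. In such tissue, fewer cells of a type and less RNA per cell cannot be told apart. Smooth muscle markers averaged 11.42 to 13.12 on the log2 scale in normal aorta (7 markers with signals per array) and were thus strongly present in the labelled tissue.

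Integrins are heterodimers of an alpha and a beta chain that anchor cells to other cells and to matrix. The beta 2 chain, encoded by Itgb2 (CD18), is carried by leukocytes and pairs with 4 alpha chains encoded by Itgal, Itgam, Itgax and Itgad, and inherited loss of the human chain causes leukocyte adhesion deficiency. The alpha 4 chain (Itga4) pairs with beta 1 or beta 7 (Itgb7) and binds VCAM-1 and MAdCAM-1, and beta 7 also pairs with the alpha E chain (Itgae, CD103), which binds E-cadherin. Together they carry rolling, arrest and tissue residence of leukocytes in inflamed vessel walls.

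On the mm10 build, the alpha chains of the beta 2 family lay together on chromosome 7. Itgal spanned 127296260 to 127335137, Itgam 128062640 to 128128160, Itgax 128129547 to 128150657 and Itgad 128154376 to 128223816, all on the plus strand. Only 1386 bases separated Itgam from Itgax and 3718 separated Itgax from Itgad, whereas Itgal lay 727502 bases before Itgam. Itgb2 was on chromosome 10 (77530252 to 77565708), Itga4 on chromosome 2 (79255426 to 79333123), Itgb7 on the minus strand of chromosome 15 (102215995 to 102231935) and Itgae on chromosome 11 (73090583 to 73147449).

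The 250 bases before the RefSeq start (GRCm38.p6) are shown for the 4 members that the promoter table lists, the neighbours Itgam and Itgax, whose signals moved with Itgb2 in the arrays below, and the partners Itga4 and Itgb7. Capitals mark GAGGAA (the core bound by PU.1, the myeloid factor encoded by Spi1) or TGTGGT (the core bound by RUNX factors), searched on both strands with TATAAA (the TATA box).
Itgam, chr7:128062390-128062639, plus strand: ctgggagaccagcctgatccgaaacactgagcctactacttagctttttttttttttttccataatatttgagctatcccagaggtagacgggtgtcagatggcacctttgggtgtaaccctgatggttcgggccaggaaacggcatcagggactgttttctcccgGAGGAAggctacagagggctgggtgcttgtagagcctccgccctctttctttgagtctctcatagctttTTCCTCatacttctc
Itgax, chr7:128129300-128129549, plus strand: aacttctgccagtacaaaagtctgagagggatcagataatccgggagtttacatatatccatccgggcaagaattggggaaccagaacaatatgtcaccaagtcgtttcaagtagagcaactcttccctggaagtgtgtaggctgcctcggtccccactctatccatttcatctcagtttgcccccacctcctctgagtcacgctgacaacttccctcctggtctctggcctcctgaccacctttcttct
Itga4, chr2:79255176-79255425, plus strand: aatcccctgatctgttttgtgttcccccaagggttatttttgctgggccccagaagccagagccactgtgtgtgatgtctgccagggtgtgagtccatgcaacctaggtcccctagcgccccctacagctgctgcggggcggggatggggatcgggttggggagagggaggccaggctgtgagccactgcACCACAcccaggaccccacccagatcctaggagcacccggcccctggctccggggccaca
Itgb7, chr15:102231936-102232185, minus strand: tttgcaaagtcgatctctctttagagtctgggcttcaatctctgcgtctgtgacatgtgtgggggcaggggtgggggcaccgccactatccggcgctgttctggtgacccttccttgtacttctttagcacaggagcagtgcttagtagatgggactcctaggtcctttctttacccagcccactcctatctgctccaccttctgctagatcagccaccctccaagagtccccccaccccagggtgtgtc

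GAGGAA occurred in the Itgam window from 84 to 79 bases before the start and, on the opposite strand, from 15 to 10 bases before it. Its letters were present on either strand in 23.3% of 32851 promoter windows of the same length. TGTGGT occurred on the opposite strand of the Itga4 window from 60 to 55 bases before the start, and 14.0% of all windows held it. Itgax and Itgb7 had none of the 3 motifs, and none of the 4 windows held TATAAA, which 12.4% of all windows did. A match describes letters and not binding.

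PPE vs. normal aorta asked how the integrins stood in the established aneurysm. Itgb2 rose and was the only member called by limma at an adjusted p under 0.05, in a comparison where 3.96% of 65956 clusters were called, 1.35% higher and 2.61% lower. The 7 other members did not pass, and all 8 fitted differences were above 0. The median log2 fold change of the 8 was 1.14, against -0.01 over all genes. The number called moved between 0 and 7 with the processing and between 0 and 4 with 1 array left out.

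Itgb2 read 7.95, 6.78, 6.01, 8.33 and 8.42 on the normal aorta arrays. PPE arrays ran from 9.01 through a median of 10.12 to 11.27, and PPE + Lenva systemic arrays from 8.83 through 10.32 to 12.36. Every aneurysm array, treated or not, lay above every normal array. Signals differed by 2.58 on the log2 scale between PPE and normal aorta (5.96-fold, SE 0.63, 95% interval 1.24 to 3.91, limma adjusted p = 0.0311). A two-sided exact permutation test of the same arrays gave p = 0.00433, the smallest that 6 against 5 arrays allow. Such complete separation with PPE higher was seen in 6.68% of the 11121 clusters with signals per array, a table that holds clusters selected for differing among the groups. Exact permutation p values of group differences, here and below, exist only for clusters of that selected table and so add no independent support.

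The Itgb2 call in PPE vs. normal aorta was not stable. It was lost without normal aorta replicate 2 (limma adjusted p = 0.0803), normal aorta replicate 3 (0.0924) or any of PPE replicates 1, 2, 3 and 4 (0.0561, 0.0593, 0.0585 and 0.078). Normal replicates 2 and 3 carried the lowest Itgb2 signals of the series.

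**Figure D1:**
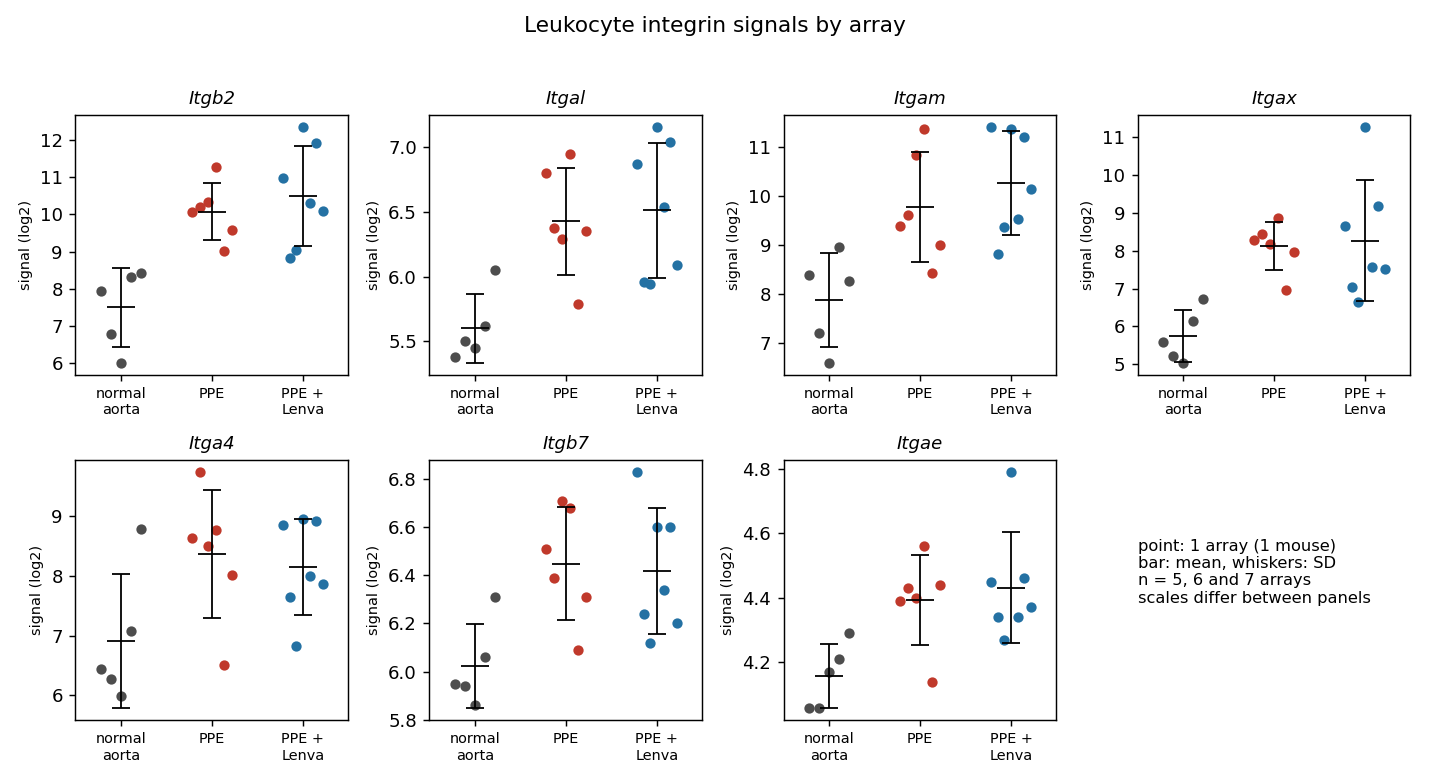
Log2 signal (y axis, scale differing between panels) of the 7 members with signals per array in normal aorta (n = 5), PPE (n = 6) and PPE + Lenva systemic (n = 7), with 1 point per array, the mean as a bar and the SD as whiskers. Itgb2 in both aneurysm groups lies above all normal arrays (highest normal 8.42, lowest aneurysm 8.83), whereas the Itga4 arrays overlap.

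Itgax encodes the alpha chain of CD11c/CD18 (complement receptor 4), abundant on dendritic cells and on many tissue macrophages. Normal aorta arrays read 5.60, 5.21, 5.04, 6.15 and 6.72, PPE arrays 6.97 to 8.85 with a median of 8.23, and PPE + Lenva systemic arrays 6.65 to 11.27 with a median of 7.56. PPE lay wholly above normal aorta, as it did in 6.68% of the clusters with signals per array, the selected table. Of the treated arrays only replicate 3, at 6.65, lay just under the highest normal array. The difference between PPE and normal aorta was 2.37 on the log2 scale (5.17-fold, SE 0.65, 95% interval 1.00 to 3.74) with a limma adjusted p of 0.0504, just short of the threshold, and an exact permutation p of 0.00433. It passed without PPE replicate 5 (limma adjusted p = 0.0344), normal aorta replicate 5 (0.0428) or PPE + Lenva systemic replicates 2, 3 or 4 (0.0484, 0.0427 and 0.00842), the last through the shared estimate of spread.

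Itgam encodes the alpha chain of Mac-1 (CD11b/CD18, complement receptor 3) of monocytes, macrophages and neutrophils. Its signals were 8.38, 7.19, 6.59, 8.95 and 8.27 in normal aorta, 8.43 to 11.36 (median 9.49) in PPE and 8.82 to 11.41 (median 10.14) in PPE + Lenva systemic. In each aneurysm group 1 array lay under the highest normal array. The log2 difference in PPE vs. normal aorta was 1.89 (3.71-fold, SE 0.61, 95% interval 0.61 to 3.17, limma adjusted p = 0.0892, exact permutation p = 0.00866).

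Itgal encodes the alpha chain of LFA-1 (CD11a/CD18), the receptor for ICAM-1 with which lymphocytes and other leukocytes arrest. Signals were 5.38, 5.50, 5.45, 5.62 and 6.05 in normal aorta, 5.79 to 6.95 (median 6.36) in PPE and 5.94 to 7.16 (median 6.54) in PPE + Lenva systemic. All PPE arrays but replicate 5 exceeded all normal arrays. PPE and normal aorta differed by 0.83 on the log2 scale (1.77-fold, SE 0.25, 95% interval 0.30 to 1.35, limma adjusted p = 0.0704, exact permutation p = 0.00866), and the call was reached without PPE replicate 5 (limma adjusted p = 0.0323).

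Itgad, the alpha D chain (CD11d), a further partner of beta 2 on some macrophages, stood at an authors' average of 4.0 in normal aorta, 4.06 in PPE and 4.05 in PPE + Lenva systemic. These averages lay under the medians of all arrays over their signal table, which ran from 5.45 to 5.66. The fitted differences of Itgad were 0.06 in PPE vs. normal aorta (95% interval -0.04 to 0.16, limma adjusted p = 0.554) and 0.05 in PPE + Lenva systemic vs. normal aorta (-0.04 to 0.14, 0.63). The intervals leave room for at most a small change in the signal of this cluster, which has no test over arrays here.

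Itga4, the alpha chain of VLA-4 and of alpha 4 beta 7, was the most scattered of the 7 members with signals per array in relation to its difference in PPE vs. normal aorta (SE 0.57). Normal aorta read 6.43, 6.27, 5.98, 7.07 and 8.79, PPE 6.50 to 9.75 with a median of 8.57, and PPE + Lenva systemic 6.83 to 8.95 with a median of 8.0. Normal replicate 5, at 8.79, lay above 5 of the 6 PPE arrays and 4 of the 7 treated arrays. The difference in PPE vs. normal aorta was 1.46 (2.75-fold, SE 0.57, 95% interval 0.26 to 2.66, limma adjusted p = 0.158, exact permutation p = 0.0736), and without normal replicate 5 it was 1.93 (limma adjusted p = 0.0485). That array also read 11.53 for Ptprc (CD45), the pan-leukocyte phosphatase, against 6.47 to 10.18 on the other normal arrays. How far leukocyte content set its Itga4 signal was not tested.

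Itgb7 and Itgae sat low and moved little on the log2 scale. Itgb7 read 5.95, 5.94, 5.86, 6.06 and 6.31 in normal aorta, 6.09 to 6.71 (median 6.45) in PPE and 6.12 to 6.83 (median 6.34) in PPE + Lenva systemic. Itgae read 4.06, 4.06, 4.17, 4.21 and 4.29 in normal aorta, 4.14 to 4.56 (median 4.42) in PPE and 4.27 to 4.79 (median 4.37) in PPE + Lenva systemic. Most aneurysm arrays were higher than normal aorta for both genes, and the groups overlapped. In PPE vs. normal aorta Itgb7 differed by 0.42 (95% interval 0.14 to 0.71, limma adjusted p = 0.0871, exact permutation p = 0.013) and Itgae by 0.24 (0.05 to 0.42, 0.132, exact permutation p = 0.0173). Without PPE replicate 5, the array lowest for both genes in its group, Itgb7 was called (limma adjusted p = 0.0393).

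PPE + Lenva systemic vs. normal aorta asked how the treated aneurysm stood against the untreated vessel. Itgb2, Itgam, Itgax and Itgal rose, so that 4 of the 8 members were called higher where 6.05% of all clusters were called, 2.72% higher and 3.33% lower. The other 4 did not pass. Itgb2 showed the largest difference of the 8, at 3.01 (8.04-fold, SE 0.61, 95% interval 1.72 to 4.30, limma adjusted p = 0.0092), with an exact permutation p of 0.00253, the smallest possible for 7 against 5 arrays. It was called in each of the 18 fits that left out 1 array. No treated array overlapped a normal one for Itgb2, a separation found in 8.63% of the clusters with signals per array.

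The 3 alpha chains that rose with it differed by 2.52 for Itgax (5.73-fold, SE 0.63, limma adjusted p = 0.0261), 2.38 for Itgam (5.22-fold, SE 0.59, 0.0248) and 0.91 for Itgal (1.88-fold, SE 0.24, 0.0329). Each of these calls depended on single arrays. All 3 were lost without normal aorta replicates 2 or 3 or PPE + Lenva systemic replicates 1 or 6, at limma adjusted p between 0.0515 and 0.0836 over every array that ended a call. Itgal and Itgax were also lost without normal replicate 1 (0.074 and 0.053), Itgal without normal replicate 4 (0.0585), and Itgal and Itgam without treated replicate 4 (0.0631 and 0.0515).

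Of the members not called, Itgae differed by 0.27 (limma adjusted p = 0.0618), Itgb7 by 0.39 (0.0858) and Itga4 by 1.24 (0.209). Itgae passed without PPE replicate 5 (0.0403) or treated replicate 3 (0.0449).

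PPE + Lenva systemic vs. PPE is the comparison that holds the drug. None of the 8 integrins was called, and none of the 65956 clusters was, so that the background is 0%. The fitted differences of treated minus PPE were 0.43 for Itgb2 (95% interval -0.79 to 1.66), 0.49 for Itgam (-0.69 to 1.67), 0.15 for Itgax (-1.11 to 1.41) and 0.09 for Itgal (-0.39 to 0.57). They were -0.22 for Itga4 (-1.32 to 0.89), -0.03 for Itgb7 (-0.29 to 0.23), 0.04 for Itgae (-0.13 to 0.20) and -0.01 for Itgad (-0.10 to 0.08). No member had an unadjusted p under 0.05, the smallest being 0.39 for Itgam in the limma fit.

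For Itgb2, Itgam and Itgax the intervals reach from a fall to more than a doubling, and for Itga4 they reach below a halving, so the arrays do not show that treated and untreated aneurysms carried like amounts. For Itgb7, Itgae and Itgad they are narrow on the log2 scale, at low signals. Treated arrays spread more widely than PPE arrays for Itgb2 (SD 1.34 against 0.76) and for Itgax (1.59 against 0.63), a difference in spread that was not tested. For Itgax, treated replicate 4 at 11.27 and replicate 6 at 9.18 lay above all 6 PPE arrays and replicate 3 at 6.65 below them. The Itgax difference turned to -0.35 without replicate 4.

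**Figure D2:**
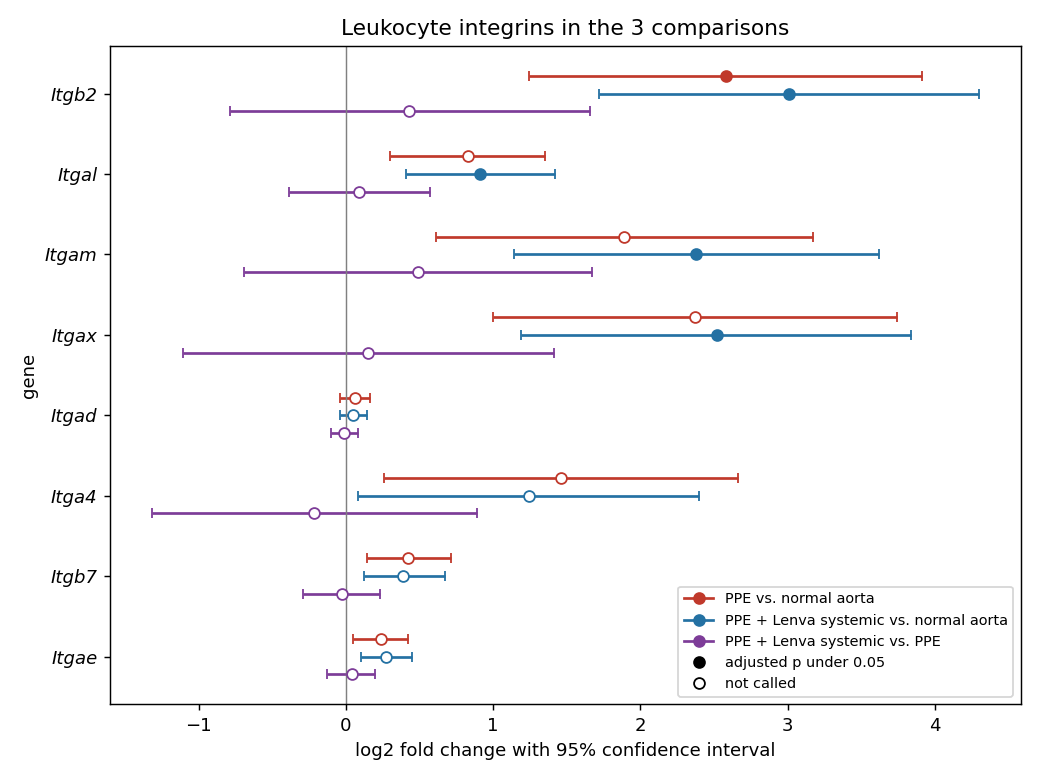
Log2 fold change (x axis) of each of the 8 members (y axis) in the 3 comparisons with its 95% confidence interval, filled where the limma adjusted p was under 0.05. Both comparisons with normal aorta share the normal arrays, and intervals of PPE + Lenva systemic vs. PPE all span 0.

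A call in 1 gene and not in another does not show that they responded unequally, so each member with signals per array was set against Itgb2 within each array, as its log2 signal minus that of Itgb2. The difference between 2 probe sets has no meaning as a level, but its change between groups compares how far the 2 signals moved. In PPE vs. normal aorta the change was -0.21 for Itgax (exact permutation p = 0.455) and -0.68 for Itgam (p = 0.039, 0.0866 after Benjamini-Hochberg adjustment over the 18 tests of this kind). It was -1.75 for Itgal, -2.15 for Itgb7 and -2.34 for Itgae, each at the smallest permutation p possible (0.00433, adjusted 0.013). Itga4 changed by -1.12 relative to Itgb2 (exact permutation p = 0.0433, adjusted 0.0866).

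Relative to Itgb2 in PPE + Lenva systemic vs. normal aorta, Itgal, Itgb7 and Itgae changed by -2.09, -2.61 and -2.73 (exact permutation p = 0.00253 each, adjusted 0.013) and Itga4 by -1.77 (exact permutation p = 0.00758, adjusted 0.0195). Itgam changed by -0.62 (exact permutation p = 0.0606) and Itgax by -0.49 (exact permutation p = 0.177). Both aneurysm groups were compared with the same normal arrays. Itgae read 4.06 to 4.79, under the median of every array, as Itgad did, and Itgal and Itgb7 had group means of 5.60 to 6.51, against 7.50 to 10.51 for Itgb2. How far a cluster at such signals registers a change was not tested, and these values do not show that the RNA of Itgae, Itgb7 or Itgal changed less than that of Itgb2. Between treated and untreated aneurysm the change relative to Itgb2 ran from -0.65 for Itga4 to 0.06 for Itgam, and no exact permutation p was under 0.145.

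**Figure D3:**
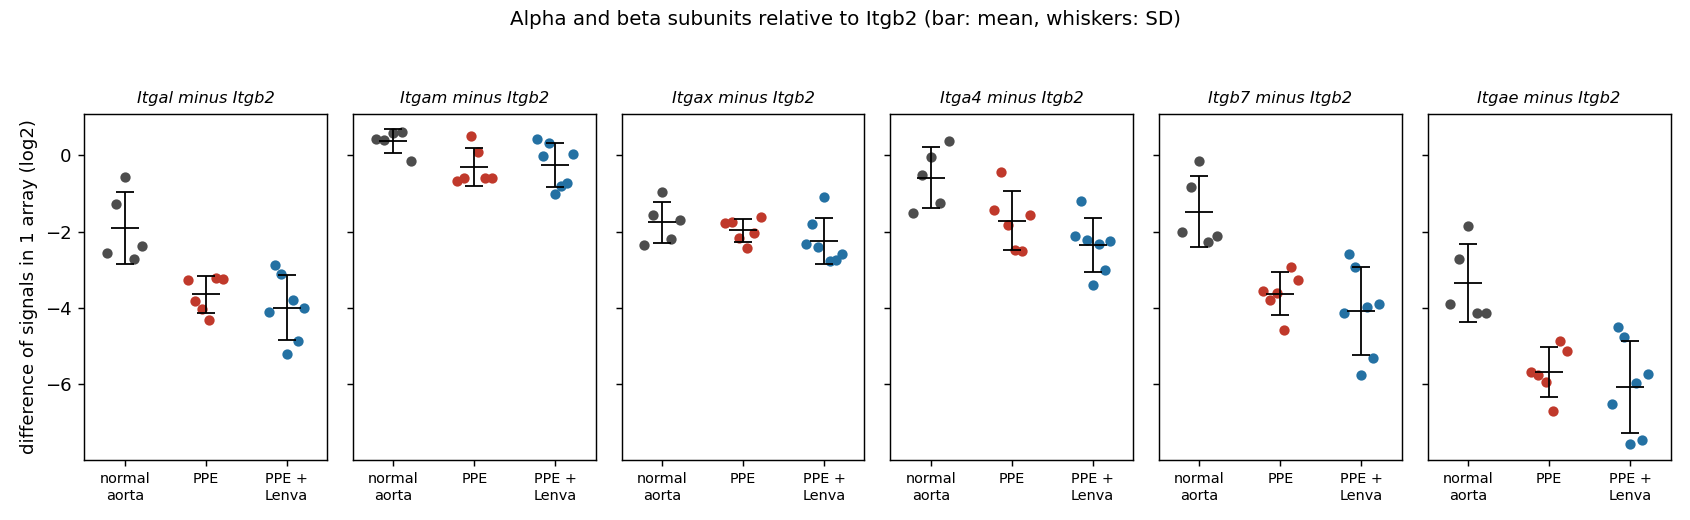
Log2 signal of each member minus that of Itgb2 in the same array (y axis) for normal aorta, PPE and PPE + Lenva systemic, with 1 point per array, the mean as a bar and the SD as whiskers. Itgal, Itgb7 and Itgae are lower relative to Itgb2 in both aneurysm groups, with group means of Itgal minus Itgb2 of -1.90, -3.65 and -3.99, and those of Itgax minus Itgb2, whose changes did not pass the test, were -1.75, -1.96 and -2.24.

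Partner chains were then compared mouse by mouse inside each aneurysm group, since group differences in level would dominate a pooled correlation. Of 14 correlations computed, 7 had a Pearson permutation p under 0.05 after Benjamini-Hochberg adjustment, 3 among the 6 PPE arrays and 4 among the 7 PPE + Lenva systemic arrays. By Spearman rho fewer passed. The adjusted exact permutation p of rho was 0.013 for Itgb2 with Itgam in PPE and with Itgal and Itgax in treated aorta. For every other pair it was 0.0574 or more, and the p printed beside each rho below is unadjusted. Itgb2 and Itgam moved together in PPE (r = 0.93, exact permutation p = 0.00556, adjusted 0.0194, rho = 1.00 with exact p = 0.00278) and in treated aorta (r = 0.91, exact permutation p = 0.00734, adjusted 0.0194, rho = 0.86 with exact p = 0.0238). Without the 2 arrays farthest from the Itgb2 median, r was 0.81 in PPE and 0.87 in treated aorta. After quantile normalization, added after seeing the data, the corresponding values were 0.49 and 0.86.

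Itgb2 and Itgax gave r = 0.92 in PPE (exact permutation p = 0.0181, adjusted 0.0362, rho = 0.83 with exact p = 0.0583) and r = 0.93 in treated aorta (exact permutation p = 0.000595, adjusted 0.00417, rho = 0.96 with exact p = 0.00278), and 0.70 and 0.92 without the 2 farthest arrays, or 0.33 and 0.90 after quantile normalization. In PPE the Itgam and Itgax values without those arrays were thus lower after quantile normalization. Itgb2 and Itgal gave r = 0.96 in treated aorta (exact permutation p = 0.000595, adjusted 0.00417, rho = 0.96 with exact p = 0.00278), which was 0.91 without the 2 farthest arrays. In PPE their r of 0.83 (exact permutation p = 0.0472, adjusted 0.0756, rho = 0.60 with exact p = 0.242) fell to -0.02 without those 2 arrays. Leaving them out narrows the range of Itgb2 and leaves 4 PPE arrays. The lower values in PPE therefore do not show what the relations rested on.

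**Figure D4:**
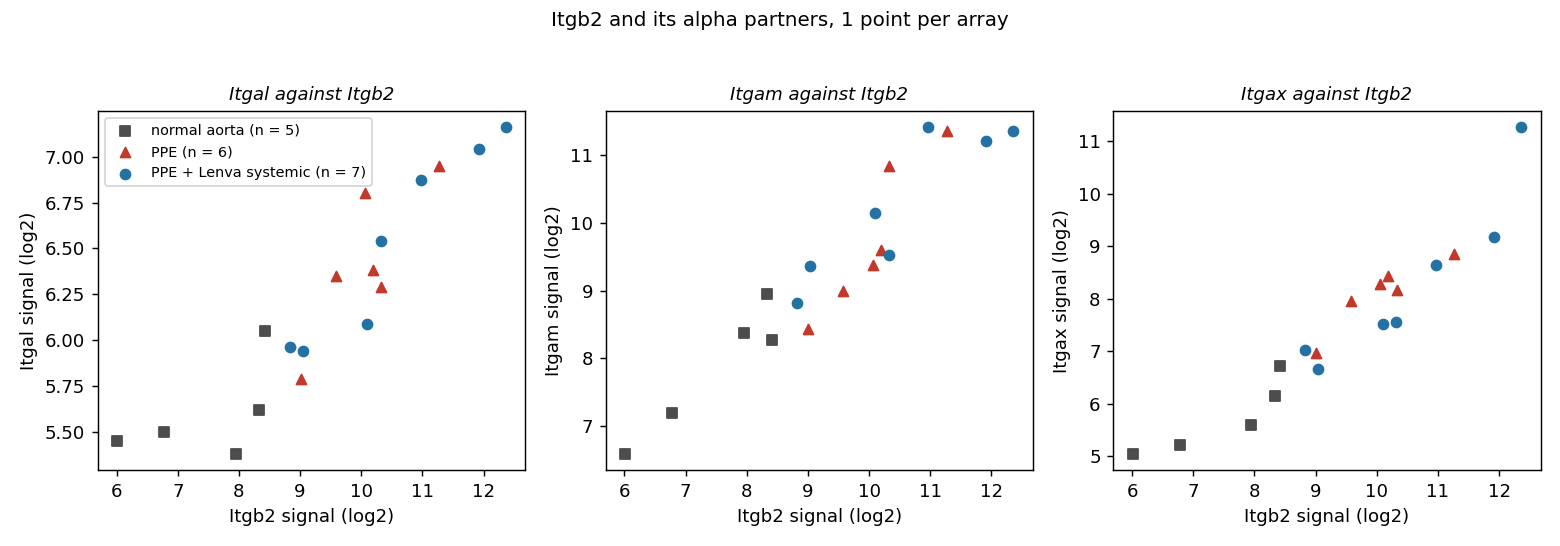
Log2 signals of Itgal, Itgam and Itgax (y axes) against that of Itgb2 (x axis), 1 point per array, in normal aorta (squares, n = 5), PPE (triangles, n = 6) and PPE + Lenva systemic (circles, n = 7). Within the treated arrays the correlation with Itgb2 was 0.96, 0.91 and 0.93.

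Itga4 rose and fell with Itgb7 among treated mice (r = 0.90, exact permutation p = 0.00833, adjusted 0.0194, rho = 0.85 with exact p = 0.0246, and 0.92 without the 2 farthest arrays). In PPE the same pair gave r = 0.62 (exact permutation p = 0.186, rho = 0.49 with exact p = 0.356). With its other partner, Itgb1, the beta chain of nearly all cells, Itga4 gave r = 0.60 in PPE (exact permutation p = 0.217, rho = 0.64 with exact p = 0.2, and r = 0.07 after quantile normalization) and -0.53 in treated aorta (exact permutation p = 0.226, rho = -0.74 with exact p = 0.0667). Itgb7 and Itgae gave r = 0.75 in PPE (exact permutation p = 0.0903) and 0.61 in treated aorta (exact permutation p = 0.133), with rho of 0.31 and 0.76 (exact p = 0.564 and 0.0552).

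Ptprc, as a measure of leukocyte RNA, followed Itgb2 in PPE with r = 0.94 (exact permutation p = 0.00556, adjusted 0.0194, rho = 0.94 with exact p = 0.0167) and in treated aorta with r = 0.78 (exact permutation p = 0.0486, adjusted 0.0756, rho = 0.75 with exact p = 0.0663). Ptprc itself ran from 6.47 to 11.53 in normal aorta, 9.65 to 14.00 in PPE and 11.01 to 14.56 in treated aorta. It was called higher in both comparisons with normal aorta (3.55, limma adjusted p = 0.0372, and 3.96, 0.0145), in 10 and in 18 of the 18 fits that left out 1 array, with a highest adjusted p of 0.106 in PPE vs. normal aorta. After quantile normalization 6 of the 14 correlations passed by Pearson r, Itgb2 with Itgax in PPE no longer among them (adjusted 0.0666 by exact permutation).

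Among 4978 genes compared, those most like Itgb2 over the 18 arrays, once each group's mean was subtracted, were Cyba, Laptm5, H2-K1, Fermt3 and Ciita, with correlations of 0.956, 0.954, 0.947, 0.944 and 0.941. Cyba encodes a subunit of the phagocyte NADPH oxidase, Laptm5 a lysosomal protein of blood cells, H2-K1 an MHC class I chain, Fermt3 kindlin-3, which activates integrins in blood cells, and Ciita the MHC class II transactivator. On the same measure Itgax reached 0.898, Itgam 0.897, Itgal 0.841, Itgb7 0.776, Itga4 0.745 and Itgae 0.744. These values describe 18 arrays that share their processing.

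The ligands and counter-receptors of the 8 integrins showed few calls. Of 15 genes, C3 and Thy1 rose in PPE vs. normal aorta and none fell. C3, whose fragment iC3b is bound by Mac-1 and CD11c/CD18, rose by 2.22 (limma adjusted p = 0.00632), and Thy1, a counter-receptor of Mac-1, by 0.83 (0.0403). C3 was called in each of the 18 fits that left out 1 array and Thy1 in 8. Vcam1, the ligand of VLA-4, averaged 9.87 ± 1.22 (SD, n = 5) in normal aorta, 11.83 ± 1.06 (n = 6) in PPE and 12.86 ± 0.55 (n = 7) in PPE + Lenva systemic. Its difference in PPE vs. normal aorta was 1.96 (limma adjusted p = 0.0522), and in treated vs. normal aorta it rose by 2.99 (0.00364).

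Icam1, the main ligand of LFA-1, averaged 6.41, 6.94 and 7.07 in the 3 groups and differed by 0.53 in PPE vs. normal aorta (limma adjusted p = 0.275). In PPE + Lenva systemic vs. normal aorta, C3 and Thy1 rose again (1.90, limma adjusted p = 0.0113, and 0.79, 0.0337), and Icam2, Jam2 and Jam3, endothelial adhesion molecules, fell by 0.44, 1.21 and 0.61 (0.0156, 0.0201 and 0.0449). With 1 array left out, C3 and Icam2 were called in all 18 fits, Jam2 in 16, Thy1 in 9 and Jam3 in 7. Icam2 read 5.19 to 5.79 in normal and 4.82 to 5.24 in treated aorta, near or under the array medians. Madcam1 and Cdh1, which bind alpha 4 beta 7 and alpha E beta 7, stood at authors' averages of 3.50 to 3.68 and 3.90 to 4.05. Fn1, which binds VLA-4, was at 19.74 on each of the 7 treated arrays, close to the highest log2 signal on the arrays, 19.93.

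Genes that switch integrins on from inside the cell numbered 16. In PPE vs. normal aorta, Fyb, the adaptor ADAP of T cells and myeloid cells, rose by 1.89 (limma adjusted p = 0.0457), and Rasgrp2, the exchange factor for Rap1 known from platelets, fell by 0.22 (0.0138) at signals of 4.43 to 4.84. The Fyb call remained in 4 of the 18 fits that left out 1 array (highest adjusted p 0.124), the Rasgrp2 call in all 18. Under the other alternatives the limma adjusted p of Rasgrp2 reached 0.141. Its signals lay under the median of every array (5.45 to 5.66). Fermt3 differed by 0.79 (limma adjusted p = 0.0702). Treated against normal aorta, 9 of the 16 rose, Fermt3, Rap1a, Rap1b, Apbb1ip, Stk4, Skap1, Skap2, Fyb and Cytip, among them Fermt3 by 0.91 (0.0277) and Apbb1ip, the Rap1 effector RIAM, by 1.44 (0.026). Rasgrp2 fell by 0.21 (0.0131), with a limma adjusted p of up to 0.0922 under the alternatives.

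Genes that signal from engaged integrins into the cell had the most calls among the 5 pathway lists in both comparisons with normal aorta. All 15 of them had signals per array, against 8 of 15 ligands and 11 of 16 activation genes. Counts with 1 array left out overlapped between lists, so the order of the lists is not shown. Of all clusters, 1.35% were called higher in PPE and 2.72% in treated aorta, each against normal aorta. Of 15 genes, 7 rose in PPE vs. normal aorta and none fell, namely Fcer1g, Tyrobp, Rac2, Lcp2, Lyn, Vav1 and Syk. Fcer1g and Tyrobp, the ITAM adaptors that couple beta 2 integrins to Syk in myeloid cells, rose by 3.26 (limma adjusted p = 0.0147) and 3.14 (0.00991), and Rac2, a GTPase of blood cells, by 2.64 (0.0346). Syk itself rose by 0.98 (0.0303). With 1 array left out, Fcer1g and Tyrobp were called in all 18 fits, Lcp2 in 15, Syk in 12, Lyn and Rac2 in 11 and Vav1 in 7. The median of this list was 0.98, against -0.01 over all genes. Treated against normal aorta, 12 of the 15 rose, with a median of 1.08, and the 3 not called were Vav3, Plcg2 and Was.

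Transcription factors of leukocytes numbered 6. Runx1 rose in PPE vs. normal aorta by 1.71 (limma adjusted p = 0.0171), and Spi1 (PU.1) differed by 1.37 (0.0654). Treated against normal aorta, Runx1, Spi1 and Irf8, a factor of monocytes and dendritic cells, rose by 1.61, 1.48 and 1.01 (0.016, 0.0326 and 0.0354). With 1 array left out, Runx1 was called in 16 of 18 fits in each comparison with normal aorta. The Spi1 and Irf8 calls in treated aorta each remained in 11.

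Of 17 other integrin subunits measured, 3 fell in PPE vs. normal aorta, none rose and 14 were not called. Itga8, the smooth muscle alpha chain, fell by 2.85 (limma adjusted p = 0.0111), Itga9, a chain of smooth muscle and endothelium, by 1.65 (0.00474), and Itgb3, the beta chain of the vitronectin receptor, by 0.79 (0.0284). The list median was -0.10, against -0.01 over all genes, with 6 differences above 0 and 11 below. The highest was 1.48 for Itga11, a collagen receptor chain of fibroblasts (0.0699). Itgb1 averaged 16.50 ± 0.12 (SD, n = 5) in normal aorta, 16.07 ± 0.38 (n = 6) in PPE and 16.49 ± 0.25 (n = 7) in treated aorta, a difference of -0.42 in PPE vs. normal aorta that did not pass (0.145). In PPE + Lenva systemic vs. normal aorta Itga9 fell by 1.36 (0.0113) and Itga2, a collagen receptor chain, rose by 0.90 (0.00598). In PPE + Lenva systemic vs. PPE none of the genes in these 5 lists was called. Leaving out 1 array at a time, run for these lists after seeing the data, kept 6 of the 15 calls of PPE vs. normal aorta in every fit. Treated against normal aorta, it kept 13 of the 32 calls on genes with signals per array. Rap1a, called there as well, had none.

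Most pan-leukocyte and macrophage markers rose in both comparisons with normal aorta, where no neutrophil, eosinophil or mast cell marker was called higher. Of 5 pan-leukocyte markers, 4 rose in PPE vs. normal aorta, and the mean signal of the 5 ran from 6.08 to 8.88 in normal aorta, 8.30 to 11.28 in PPE and 9.15 to 11.64 in PPE + Lenva systemic. Of 10 macrophage markers, 8 rose, and the mean of the 10 ran from 8.62 to 10.49, from 10.91 to 12.35 and from 10.75 to 12.32 in the same order. Cd163, a scavenger receptor of resident macrophages in the same list, differed the other way, by -0.71 in PPE vs. normal aorta (limma adjusted p = 0.0646). In PPE + Lenva systemic vs. normal aorta 9 macrophage markers rose and Cd163 fell by 1.22 (0.00237), and all 5 pan-leukocyte markers rose. Of all clusters, 1.35% were called higher in PPE and 2.72% in treated aorta, each against normal aorta. In every fit that left out 1 array, 1 of the 4 pan-leukocyte and 5 of the 8 macrophage calls in PPE vs. normal aorta held. Treated against normal aorta, 4 of 5 and 7 of 10 held, the 10 including the fall of Cd163. Macrophage means of both aneurysm groups thus lay above all normal arrays, as Itgb2 did. For the 5 dendritic cell markers with signals per array, means spanned 5.42 to 6.02 in normal aorta. They spanned 6.03 to 7.00 in PPE and 6.01 to 6.94 in treated aorta. In the same order, medians of such means were 5.00, 5.95 and 5.91 for T cell and 4.73, 5.76 and 6.20 for NK cell markers. They were 5.01, 6.82 and 5.79 for B lineage, 4.81, 4.93 and 5.17 for neutrophil and 8.60, 8.28 and 7.28 for mast cell markers. PPE replicate 5, the lowest PPE array for Itgb2, Itgam, Itgax, Itgal, Itga4, Itgb7 and Itgae alike, was also the lowest for pan-leukocyte and macrophage markers (8.30 and 10.91).

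Fewer markers of other leukocytes were called in PPE vs. normal aorta, which does not compare the lists with one another. Of 8 dendritic cell markers 2 rose (Cd209a and Clec10a), of 8 T cell markers 1 (Cd4), of 6 B lineage markers 1 and of 6 NK cell markers none. Cd209a and Cd4 were called in each of the 18 fits that left out 1 array and Clec10a in 15. The B lineage gene was Jchain, the joining chain of secreted antibodies, at 3.47 (limma adjusted p = 0.0498), a difference as large as that of any macrophage marker and called in 3 of the 18 fits that left out 1 array. Treated against normal aorta, 5 of 8 T cell markers, 3 of 8 dendritic cell markers and 2 of 6 NK cell markers rose and no B lineage marker was called. None of these T cell, dendritic cell and NK cell calls held in every fit that left out 1 array. Of all clusters, 2.72% were called higher there. In PPE vs. normal aorta no neutrophil marker of 8 rose, Ngp fell by 0.37 at an authors' average of 3.49 in PPE, and Ly6g averaged 4.68 in normal aorta and 4.83 in PPE. None of 4 eosinophil or 5 platelet markers was called. The mast cell marker Kit fell by 0.92. Of 8 smooth muscle markers 3 fell, as did 3 of 6 endothelial markers, none of 5 measured fibroblast markers was called, and both measured red blood cell markers were not called. How far cell content accounted for the integrin differences was not tested. In PPE + Lenva systemic vs. PPE no marker in any list was called.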

How the data were processed

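Signals of 18 arrays (5 normal aorta, 6 PPE, 7 PPE + Lenva systemic) were used. The log2 signals were made by the authors with SST-RMA (Transcriptome Analysis Console, version 4.0.1.36, build mm10, from the submitters' processing notes) and deposited for 11121 of 65956 transcript clusters, a table in which clusters were selected by an F test across groups. For all 65956 clusters the authors deposited log2 group averages and SDs, which are not plain means of the arrays. Their fold change and p-value columns, which hold their own comparisons, were not used. Genes were named from clusters with 1 symbol (36571), by the brightest cluster. Group means were compared with limma 3.58.1 (R 4.3.3), 3 groups, no covariates. Clusters without signals per array entered through the authors' averages and SDs, the variance prior (1.72 degrees of freedom) came from all clusters, and the Benjamini-Hochberg adjustment ran over the same set. A gene was called at an adjusted p under 0.05. The 95% intervals are not adjusted for multiple genes.

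Exact permutation tests were two-sided over arrays, in Python 3.11.15. Those between groups cover only clusters of the table selected by the F test. The fit was tested on simulated data. The array number limits the precision. Replicates are separate mice, no 2 arrays shared over 2.31% of values, and no scan date or batch was given in the sources used here. The members, lists and tests were chosen with earlier results of these data known. Named genes were the 8 members, Itgb1, Ptprc, the 3 most changed called genes of each pathway list, up to 3 markers per list and the 5 genes most like Itgb2. Further list genes were chosen after their values were seen, for their roles or because a count rested on them. Alternatives were the authors' averages, 2 other normalizations, other filters, variance models and thresholds, array weights, the replicate number as a block and each array left out. Promoter windows came from RefSeq (GRCm38.p6) and listed 4 of the 8 members.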

Additional observations from a re-analysis of the deposited data

Results flagged for a closer look

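Of 21 groups of values tested with Dixon's rule (7 members in 3 groups), 1 held a sample far from the others. Itgae in PPE + Lenva systemic replicate 4 read 4.79, against 4.27 to 4.46 on the other 6 treated arrays. Its gap was 0.635 of the group's range, where the 95% critical value for 7 arrays is 0.568. Chance flags about 1 in 20 groups. The same array was the highest treated array for Itgb2 (12.36), Itgal (7.16), Itgax (11.27) and Itga4 (8.95). Without it, Itgae in PPE + Lenva systemic vs. PPE was -0.02 in place of 0.04.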

How the results depend on the processing

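The members called in PPE vs. normal aorta numbered 1. They numbered 4 with the authors' averages, where Itgal, Itgax, Itga4 and Itgb7 passed and Itgb2 did not (limma adjusted p = 0.0623), and 4 with quantile normalization (Itgb2, Itgax, Itgal, Itgae). They numbered 2 with median-centred arrays, with clusters of 1 symbol alone and with clusters of spread 0 left out of the prior (an alternative chosen after seeing the data), Itgb2 and Itgax each time. They numbered 5 without dim clusters, 5 with array weights, 3 with only the groups compared, 7 over the table of signals alone (a selected table), 4 at an unadjusted p under 0.05 with a 2-fold change, and 0 without moderation (Itgb2 0.0513). Leaving out 1 array gave 0 to 4. In PPE + Lenva systemic vs. normal aorta, 4 members became 7 over the table of signals alone, 2 with only the groups compared, and 1 to 5 with 1 array left out. Quantile normalization changed the share of calls that were higher in PPE vs. normal aorta from 34.1% to 45.2%, and called 5 other integrin subunits, 5 activation genes and 4 transcription factors. With 1 array left out (added after seeing the data), calls in PPE vs. normal aorta ran from 2 to 5 for other integrin subunits, 1 to 4 for ligands, 1 to 7 for activation, 2 to 10 for signalling and 0 to 3 for transcription factors. In treated vs. normal aorta they ran from 2 to 4, 3 to 6, 3 to 11, 6 to 12 and 0 to 3. Members that differed from Itgb2 at an unadjusted permutation p under 0.05 numbered 5 in PPE vs. normal aorta (3 to 5 with 1 array left out) and 0 in treated vs. PPE (0 to 1).

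Whether replicate numbers pair the mice was not settled. Deviations of same-numbered arrays correlated from -0.575 to 0.492, and those of differently numbered arrays from -0.610 to 0.539. With the replicate block Itgb2 was called alone in PPE vs. normal aorta (adjusted p = 0.0479) and 1 member, Itgb2, in treated vs. normal aorta (0.0232). All clusters called fell from 2610 to 1127 and from 3992 to 1548.

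Directions turned only in PPE + Lenva systemic vs. PPE, where no member was called. Itgax was -0.53 and Itgae -0.04 with the authors' averages, and Itgb7 0.01 with the replicate block. With 1 array left out, Itgal ran from -0.04 to 0.19, Itgax from -0.35 to 0.42, Itga4 from -0.59 to 0.06, Itgb7 from -0.10 to 0.02 and Itgae from -0.02 to 0.07. Of 711 values of single members under an alternative, 616 kept their direction and side of the threshold, 33 lost the call, 47 gained it and 15 turned. The cause of these changes was not tested. No member had another cluster, so that alternative was not run. Itgad kept the authors' values when arrays were left out, and those values count among the 711. Filters and variance models likewise left the fold changes as they were, so part of the 616 could not have turned.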
